A study of Homo sapiens with 10 samples.

Results

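ACSM3, FAM178B and GLT25D2 are 3 highly expressed genes of K562 cells whose RNA fell to 9.71%, 6.89% and 8.36% of the vehicle level after 48 h with 5 µM CBP30 and stayed at 61.1% or more with I-CBP112. They are 3 of the 23284 genes in the table. They were selected on these measured values, because they fell more than 8-fold with 5 µM CBP30 and little with I-CBP112, so those contrasts are given as descriptions without a test. The 2 µM CBP30 samples were not used in the selection and are tested below against DMSO, although the DMSO samples are the same ones that entered the selection.

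CREBBP and EP300 are paralogous histone acetyltransferases that act as coactivators at enhancers, and their bromodomain is the module that reads acetylated lysine. CBP30 and I-CBP112 are both small molecules that occupy this bromodomain. ACSM3 encodes a mitochondrial medium-chain acyl-CoA synthetase, an enzyme that couples fatty acids to coenzyme A so that they can be metabolised. GLT25D2, now named COLGALT2, encodes a galactosyltransferase that adds galactose to hydroxylysine residues of collagen in the endoplasmic reticulum. FAM178B is a little studied paralogue of FAM178A (SLF2), which links the SMC5/6 complex, a ring of the structural maintenance of chromosomes family, to sites of DNA damage.

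K562 is an established human myelogenous leukemia line with erythroid features. Polyadenylated RNA was sequenced from cells kept for 48 h with the vehicle DMSO, with CBP30 at 2 or 5 µM, or with I-CBP112 at 2 or 5 µM, with 2 biological replicates in each of the 5 groups and 10 samples in all. All groups were of this line, and the spread was measured only between the 2 replicates within each group. The tests pool it over the 5 groups, so a gene has the same standard error in all its contrasts. Values are FPKM, fragments scaled to transcript length and to the mapped reads of the library. This scaling left differences between the libraries, which are given below.

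All 9 erythroid markers examined were detected in every sample, the lowest at 2.25 FPKM (EPOR, the erythropoietin receptor). Of 8 markers of other blood cells, the B cell gene MS4A1 was at 0 throughout, CD14, MPO, NCAM1 and ITGAX stayed at 0.393 FPKM or less, and CD3D lay between 15.1 and 27.3 FPKM. The summed erythroid markers were 1733.2 to 1783.7 FPKM with DMSO, 613.8 to 804.9 and 572.7 to 600.4 in the CBP30 groups at 2 and 5 µM, and 999.8 to 1107.3 and 960.8 to 1041.1 with 2 and 5 µM I-CBP112. The other blood cell markers summed to 17.2 to 20.1 FPKM with DMSO and to 27.6 to 30.5 with 5 µM CBP30. The erythroid sum was thus lower with both compounds, whereas the other markers were higher with 5 µM CBP30. With 2 µM I-CBP112, where the erythroid sum was lower too, ACSM3 was at 84.1%, FAM178B at 104.7% and GLT25D2 at 78.6% of DMSO. The 3 genes were selected for a small fall with I-CBP112, so these percentages are part of the selection. The part of these marker levels in the results was not tested, and in bulk RNA fewer cells of a kind and less RNA per cell cannot be told apart. The libraries summed to between 547504.4 and 689095.4 FPKM. Replicate 1 of 2 µM CBP30 stood apart, with EEF1A1 listed at 0 and with values that depended on transcript length: relative to DMSO, its median log2 difference was 0.263 in the fifth of genes with the shortest transcripts and −0.279 in the fifth with the longest. The values of the 3 genes at 2 µM CBP30 are therefore also given by replicate or without it. The same holds for the log2 fold changes of other genes called there. Both libraries with 5 µM CBP30 had a smaller length trend in the opposite direction. Their median log2 differences were −0.118 and −0.114 for the shortest transcripts and 0.111 and 0.112 for the longest. The fold changes and list medians at 5 µM are given without removing this trend.

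ACSM3 lies on chromosome 16 (hg19 chr16:20621565-20808903, plus strand) and was the most highly expressed of the 3 genes. Its level was 454.0 and 470.8 FPKM in the DMSO samples, 146.1 and 156.3 FPKM with 2 µM CBP30, and 46 and 43.7 FPKM with 5 µM CBP30. With I-CBP112 it was 374.1 and 403.5 FPKM at 2 µM and 348.3 and 339.8 FPKM at 5 µM. No 2 groups overlapped, and the order of the groups from high to low was DMSO, I-CBP112 at 2 and 5 µM, and CBP30 at 2 and 5 µM. The group means were 462.4 ± 11.9 FPKM with DMSO, 151.2 ± 7.21 and 44.9 ± 1.64 FPKM with 2 and 5 µM CBP30, and 388.8 ± 20.8 and 344.1 ± 6.02 FPKM with 2 and 5 µM I-CBP112 (mean ± SD, n = 2). The mean was thus 3.06-fold below DMSO at 2 µM CBP30 and 10.3-fold below at 5 µM, against 1.19-fold and 1.34-fold with I-CBP112. Among all genes of the table ACSM3 ranked 158 and 151 by level in the DMSO samples and 2004 and 2132 in the samples with 5 µM CBP30.

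FAM178B lies on chromosome 2 (hg19 chr2:97541619-97652317, minus strand). It was measured at 104.3 and 99.9 FPKM with DMSO, 51.3 and 45.3 FPKM with 2 µM CBP30, and 7.27 and 6.8 FPKM with 5 µM CBP30. With I-CBP112 the values were 104.6 and 109.2 FPKM at 2 µM and 85.2 and 87.2 FPKM at 5 µM. FAM178B was the gene of the 3 with the deepest fall at 5 µM CBP30 and the shallowest at 2 µM, and it was the one whose mean with 2 µM I-CBP112 was not below DMSO. Means were 102.1 ± 3.11 FPKM with DMSO, 48.3 ± 4.2 and 7.04 ± 0.334 FPKM with 2 and 5 µM CBP30, and 106.9 ± 3.27 and 86.2 ± 1.45 FPKM with 2 and 5 µM I-CBP112 (mean ± SD, n = 2). The difference between 2 µM I-CBP112 and DMSO, 0.07 on the log2 scale with a standard error of 0.0686, was about as large as its error. The falls with CBP30 were 2.11-fold at 2 µM and 14.5-fold at 5 µM, and the rank of FAM178B in the table moved from 858 and 908 with DMSO to 7927 and 8117 with 5 µM CBP30.

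Of the 3 genes, 1 had promoter windows in the table used, and they are shown for that reason, beside the values of a gene that fell 14.5-fold. Both annotated start windows of FAM178B are printed 5′ to 3′ on the strand of the gene, from 250 bases before to 50 bases after the start (RefSeq, build GRCh38.p14, minus strand). The first covers chr2:96898084-96898383 and the second chr2:96895119-96895418. The build differs from the hg19 of the gene span, and where the windows lie relative to the start of that span was not determined. Which start is used in K562 cells was not tested. Both windows were searched on both strands for AGATAA, a motif of GATA factors, and for CACGTG, an E-box motif of MYC and related factors.
FAM178B window 1: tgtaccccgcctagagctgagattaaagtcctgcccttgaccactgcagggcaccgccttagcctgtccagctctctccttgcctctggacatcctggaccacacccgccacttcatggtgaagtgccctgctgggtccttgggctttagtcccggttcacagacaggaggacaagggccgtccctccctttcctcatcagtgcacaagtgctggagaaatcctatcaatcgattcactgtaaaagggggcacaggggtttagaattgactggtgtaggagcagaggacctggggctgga
FAM178B window 2: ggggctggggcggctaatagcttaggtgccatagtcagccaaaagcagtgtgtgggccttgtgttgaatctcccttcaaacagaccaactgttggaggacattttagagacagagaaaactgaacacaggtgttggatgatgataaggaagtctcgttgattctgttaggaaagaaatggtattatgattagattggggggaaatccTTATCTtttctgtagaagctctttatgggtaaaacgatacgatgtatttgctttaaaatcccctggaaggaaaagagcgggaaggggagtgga
The capitals mark TTATCT, the reverse complement of AGATAA, in window 2, where it begins at position −43 relative to the start. Window 1 held neither motif, and CACGTG was in neither window. For comparison, AGATAA or its reverse complement was in 10.3% and CACGTG in 7.26% of the 35116 windows of the same length over all genes.

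GLT25D2 lies on chromosome 1 (hg19 chr1:183898988-184006863, minus strand). Its values were 76.8 and 77.8 FPKM with DMSO, 17 and 23.9 FPKM with 2 µM CBP30, and 6.88 and 6.04 FPKM with 5 µM CBP30. With I-CBP112 they were 62.3 and 59.2 FPKM at 2 µM and 47.2 and 47.1 FPKM at 5 µM. The groups did not overlap, and the widest spread within a group was that of 2 µM CBP30, in which replicate 1 was the lower sample. The means were 77.3 ± 0.712 FPKM with DMSO, 20.5 ± 4.85 and 6.46 ± 0.591 FPKM with 2 and 5 µM CBP30, and 60.7 ± 2.19 and 47.2 ± 0.0369 FPKM with 2 and 5 µM I-CBP112 (mean ± SD, n = 2). GLT25D2 was 3.78-fold below DMSO at 2 µM CBP30 and 12-fold below at 5 µM, and of the 3 genes it was the one with the lowest level relative to DMSO in 5 µM I-CBP112, 1.64-fold below. It ranked 1260 and 1231 in the DMSO samples and 8099 and 8440 with 5 µM CBP30.

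At 2 µM CBP30, the concentration that did not choose the genes, all 3 were lower than with DMSO (limma on log2(FPKM + 1) with Benjamini-Hochberg adjustment over 12788 genes, two-sided). The background for this count is that 16.3% of the tested genes were called lower and 15.9% higher in the same comparison. ACSM3 differed by −1.61 on the log2 scale (SE 0.0627, adjusted p = 1.8e-05), FAM178B by −1.07 (SE 0.0686, adjusted p = 0.000127) and GLT25D2 by −1.89 (SE 0.137, adjusted p = 0.000204). By replicate, relative to the DMSO mean, the differences were −1.65 and −1.56 for ACSM3, −0.98 and −1.15 for FAM178B, and −2.12 and −1.65 for GLT25D2. The library that stood apart was thus the lower replicate for ACSM3 and GLT25D2 and the higher one for FAM178B, and without it the 3 genes were still called (log2 fold changes of −1.56, −1.15 and −1.65).

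The steps between the concentrations differed in size among the genes. On the log2 scale, 2 µM CBP30 reached 48.2% of the fall seen at 5 µM for ACSM3, 29% for FAM178B and 55.6% for GLT25D2. From 2 to 5 µM the mean FPKM dropped by a further factor of 3.37 for ACSM3, 6.86 for FAM178B and 3.17 for GLT25D2. Without the library that stood apart the shares were 46.7%, 31.3% and 48.7%, and the factors 3.48, 6.44 and 3.7. FAM178B therefore had most of its fall in the upper step, whereas the other two had about equal steps on the log2 scale. Since 5 µM CBP30 chose the genes, these shares are descriptions without a test.

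The compounds were set side by side at matched concentrations and the same 48 h, again without a test because I-CBP112 entered the selection. At 2 µM the level was lower with CBP30 than with I-CBP112 by a factor of 2.57 for ACSM3, 2.21 for FAM178B and 2.97 for GLT25D2, or 2.49, 2.36 and 2.54 without the library that stood apart. At 5 µM the factors were 7.66, 12.2 and 7.3. In none of the 3 genes did a CBP30 sample overlap an I-CBP112 sample of either concentration. The 2 concentrations of I-CBP112 lay closer together than those of CBP30, with the 5 µM mean below the 2 µM mean by a factor of 1.13 for ACSM3, 1.24 for FAM178B and 1.29 for GLT25D2, and the samples of the 2 concentrations did not overlap.

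The rule was next placed among genes at least as abundant as the lowest of the 3. In all, 1247 genes had a DMSO mean of at least 77.3 FPKM, the level of GLT25D2. The median fold fall over them was 1.15 for 5 µM CBP30, 0.953 for 2 µM CBP30 and 1.01 for I-CBP112 at 5 µM. The median for 2 µM CBP30 includes the library that stood apart, and the length trends were not removed from any of them. Of these genes 7 fell more than 8-fold with 5 µM CBP30. Besides ACSM3, FAM178B and GLT25D2 they were LMO2 (11.1-fold), which encodes an adaptor of the erythroid transcription factor complex and fell 2.54-fold with 5 µM I-CBP112, MIR3687 (8.01-fold, with 38.9 and 0 FPKM in the treated samples), and SNORD114-10 and H3F3A, both named after their values were seen. SNORD114-10 is listed at 0 in both samples with 5 µM CBP30 and also in all I-CBP112 samples. H3F3A was at 0.209 and 189.5 FPKM in the DMSO samples, so its mean rests on 1 sample. Just below the threshold were HBZ, the zeta globin of the embryo (7.21-fold), SNORD80 (5.99-fold) and MYL4, an embryonic and atrial myosin light chain (5.42-fold). HBZ fell 2.35-fold and MYL4 1.78-fold with 5 µM I-CBP112.

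The tested genes were ranked by how closely their log2 differences from DMSO followed those of each gene over the 8 treated samples, measured as the root mean square difference. This is a description, since the samples that chose the 3 genes are among those 8. ACSM3 and GLT25D2 were the nearest to each other, at 0.229, against a median of 1.87 over the 12787 other genes for ACSM3 and 1.99 for GLT25D2. The nearest to FAM178B was ASS1, argininosuccinate synthase, at 0.332, followed by ACSM3 at 0.375 and GLT25D2 at 0.556. ASS1 went from a mean of 50.8 FPKM with DMSO to 26.8 and 4.75 FPKM with 2 and 5 µM CBP30, and was at 43.1 and 35.9 FPKM with 2 and 5 µM I-CBP112. PVT1, a long noncoding RNA encoded beside MYC, and KIF1A, a kinesin motor, followed for both ACSM3 (0.382 and 0.423) and FAM178B (0.56 and 0.666). After ACSM3, the nearest to GLT25D2 were GRAP2, a signalling adaptor of haematopoietic cells, at 0.415, LMO2 at 0.46, STAR, which carries cholesterol into mitochondria for steroid synthesis, at 0.462, and MS4A3, a myeloid membrane protein, at 0.47. These 4 genes were lower with I-CBP112 than GLT25D2 was, with log2 fold changes from −0.82 to −1.32 at 5 µM against −0.70.

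Neighbouring genes were examined for whether the change extended along the chromosome. The table held 23 other genes whose span lies within 250 kb of one of the 3 genes, of which 15 passed the filter. With 5 µM CBP30, 6 of the 15 were lower and 5 higher, where 25.4% of all tested genes were called lower and 21.2% higher. With 2 µM CBP30, 5 were lower and 2 higher, and without the library that stood apart these were 7 and 3. Leaving out replicate 2 of DMSO gave 3 lower at 2 µM, and leaving out replicate 1 of DMSO gave 1 higher. Over the 15 genes, log2 fold changes had a median of −0.24 at 5 µM and 0.00 at 2 µM, against −0.010 and 0.005 over all tested genes. With I-CBP112, 1 neighbour was lower and 0 were higher at 2 µM by limma (3 and 1 at an unadjusted p under 0.05), and 2 were lower and 1 higher at 5 µM, where the shares of all tested genes called lower and higher were 0.735% and 0.868% at 2 µM and 3.28% and 3.84% at 5 µM.

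Around ACSM3, the lower genes were ACSM1, THUMPD1 and ERI2, which all overlap the span of ACSM3 and are on the opposite strand. ACSM1, another medium-chain acyl-CoA synthetase, lies wholly within that span. It was at 5.19 and 5.17 FPKM with DMSO, 2.38 and 2.11 with 2 µM CBP30, and 1.44 and 1.59 with 5 µM CBP30. I-CBP112 gave 3.31 and 3.54 FPKM at 2 µM and 3.01 and 3.38 FPKM at 5 µM, between the DMSO and CBP30 samples. ACSM1 was lower with 5 µM CBP30 by 1.30 on the log2 scale (log2 fold change −1.30, SE 0.0769, limma adjusted p = 2.99e-05), and its difference of −0.93 at the lower concentration was called too (adjusted p = 0.000317), also without the library that stood apart (−0.99). It was also called lower with 5 µM I-CBP112 (−0.56, adjusted p = 0.00808), a call lost on leaving out either DMSO sample or replicate 1 of that group. With 2 µM I-CBP112 it was called lower too (−0.48, adjusted p = 0.0328). That call was lost on leaving out any 1 sample outside the 2 µM CBP30 group. ACSM1 and ACSM3 share 0 exon bases in the annotation, but whether reads from introns of ACSM3 entered the low values of ACSM1 was not tested.

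ERI2, a 3′ to 5′ exoribonuclease family member, fell from a mean of 45.6 ± 0.482 FPKM with DMSO to 27.4 ± 2.68 and 20.5 ± 0.402 FPKM with 2 and 5 µM CBP30 (log2 fold changes −0.72 and −1.12, limma adjusted p = 0.00052 and 3.28e-05), and at 2 µM by −0.62 without the library that stood apart. ERI2 shares 837 exon bases with ACSM3 on the other strand. The libraries were stranded, but whether the counting used the strand is not given in the sources used here, and without it reads from those bases cannot be told apart. THUMPD1, which shares 0 exon bases with ACSM3, was at 49.9 ± 2.33 FPKM with DMSO and 30.7 ± 0.141 FPKM with 5 µM CBP30 (−0.69, adjusted p = 0.00061). DCUN1D3, a regulator of cullin neddylation, rose from 2.65 ± 0.0628 FPKM to 3.88 ± 0.237 and 5.75 ± 0.293 FPKM with 2 and 5 µM CBP30 (0.42 and 0.89, adjusted p = 0.00332 and 6.05e-05). ERI2 and DCUN1D3 are on the same strand, and both start 290.1 kb from the ACSM3 start. They share 146 exon bases, and whether reads from those bases entered the values of both genes was not tested. Without the library that stood apart the difference of DCUN1D3 at 2 µM was 0.37 and was still called. LYRM1 was not called, at 35.6 FPKM with DMSO and 31.3 FPKM with 5 µM CBP30 (adjusted p = 0.0639).

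Near FAM178B, the neighbour on its downstream side, SEMA4C, a semaphorin, was lower, at 24.6 ± 0.952 FPKM with DMSO, 19 ± 0.795 with 2 µM CBP30 and 13.2 ± 0.522 with 5 µM CBP30 (−0.36 and −0.85, limma adjusted p = 0.0034 and 3.84e-05), and its difference at 2 µM was −0.40 without the library that stood apart. FAHD2B was lower at 5 µM (−0.53, adjusted p = 0.0076). The transporters CNNM3 and CNNM4 and the chromatin factor KANSL3 were higher at 5 µM, by 0.55, 0.31 and 0.44 on the log2 scale (adjusted p = 0.000224, 0.00402 and 0.000647). LMAN2L was called higher too (0.36, adjusted p = 0.0201), but not without either DMSO sample or either sample of 5 µM CBP30, and ANKRD23, ANKRD36 and ANKRD39 were not called. TSEN15, a subunit of the tRNA splicing endonuclease, was the one tested neighbour of GLT25D2 and starts 13.9 kb from its start in the opposite direction. It was at 113.4 and 122.5 FPKM with DMSO, 99.4 and 97.8 with 2 µM CBP30, and 70.5 and 72.4 with 5 µM CBP30, with no overlap between the groups (−0.71 at 5 µM, SE 0.0567, adjusted p = 9.89e-05). The fall of TSEN15 at 2 µM (−0.25, adjusted p = 0.0152) was not called without replicate 2 of DMSO (adjusted p = 0.0928), and was −0.27 without the library that stood apart (adjusted p = 0.018).

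Acyl-CoA synthetases, the family of ACSM3, were counted as a list of 25 genes, of which 24 were in the table and 16 passed the filter. With 5 µM CBP30, 3 were lower and 9 higher, the former becoming 5 without either sample of 2 µM CBP30, which share the estimate of the spread. With 2 µM, 3 were lower and 6 higher (4 and 7 without the library that stood apart). The shares over all tested genes were 25.4% lower and 21.2% higher at 5 µM, and 16.3% and 15.9% at 2 µM. Over the list, log2 fold changes had medians of 0.33 and 0.15 at 5 and 2 µM, against −0.010 and 0.005 over all tested genes. Besides ACSM1, the lower genes were ACSS1, which makes acetyl-CoA in mitochondria, and ACSL1, a long-chain synthetase. ACSS1 went from 2.62 ± 0.165 FPKM to 1.46 ± 0.0605 and 0.594 ± 0.0323 FPKM with 2 and 5 µM CBP30 (−0.56 and −1.18, limma adjusted p = 0.00167 and 2.99e-05), and ACSL1 from 31.3 ± 0.694 to 21.5 ± 1.56 and 22.2 ± 0.0272 FPKM (−0.53 and −0.48, adjusted p = 0.00105 and 0.00064). At 2 µM without the library that stood apart, ACSS1 differed by −0.58 and ACSL1 by −0.46, and both were called. In the other direction, the long-chain synthetase ACSL3 was at 51.5 ± 1.47 FPKM with DMSO and 94.4 ± 2.76 FPKM with 5 µM CBP30 (0.86, adjusted p = 9.2e-05), and the mitochondrial enzyme ACSF2 and the fatty acid transport proteins SLC27A3 and SLC27A6 were also higher (0.78, 0.55 and 0.60). Of the other ACSM genes in the table, ACSM1 did not exceed 5.19 FPKM, and ACSM2A, ACSM2B, ACSM4 and ACSM5 did not pass the filter.

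With 5 µM CBP30, 11 of 24 tested genes of a list for mitochondrial fatty acid oxidation, the pathway that uses acyl-CoA, were lower and 4 higher. Of all tested genes, 25.4% were lower and 21.2% higher. The list median was −0.22 against −0.010 over all. With the length trend removed, 12 genes of the list were lower and 4 higher. The 11 became 7 without replicate 1 of DMSO and 6 without replicate 2 of 5 µM CBP30, and the 4 became 2 without replicate 1 of either group. The lower genes included DECR1, the dienoyl-CoA reductase (134.1 ± 0.701 to 92.7 ± 0.241 FPKM, −0.53, limma adjusted p = 0.000332), and CPT1A, the carnitine palmitoyltransferase of the outer mitochondrial membrane (4.02 ± 0.186 to 2.02 ± 0.0937 FPKM, −0.74, adjusted p = 0.000276). The 4 higher genes, CPT1B, CPT1C, CPT2 and CROT, were carnitine acyltransferases, which the list took in whatever their place in the cell. Among them CPT1C is a brain-type form (0.488 ± 0.0288 to 1.53 ± 0.194 FPKM, 0.76, limma adjusted p = 0.00131). ECI1 was called lower at 5 µM (−0.84, adjusted p = 0.0119), but not without replicate 1 of DMSO or either sample of 5 µM CBP30. At 2 µM, where 16.3% of all tested genes were lower and 15.9% higher, 2 of the list were lower and 4 higher, and these counts became 8 and 2 without replicate 1 of 2 µM CBP30 and 1 and 10 without replicate 2, so no direction is read from them. They were 1 and 1 without replicate 1 of DMSO and 0 and 1 without replicate 2 of DMSO.

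Of the collagen-modifying and folding genes, the pathway of GLT25D2, 18 of 22 were tested, and 3 were lower and 7 higher with 5 µM CBP30 and 2 lower and 10 higher with 2 µM. Over all tested genes 25.4% were lower and 21.2% higher at 5 µM, and 16.3% and 15.9% at 2 µM, and the list medians were 0.12 and 0.29 against −0.010 and 0.005. Without the library that stood apart the counts were 5 and 7 at 5 µM and 1 and 10 at 2 µM, and without either DMSO sample those at 2 µM were 0 and 5. GLT25D1, the other collagen galactosyltransferase, was at 45.9 and 45.1 FPKM with DMSO, 37.8 and 36.3 with 2 µM CBP30, and 36.1 and 36.5 with 5 µM CBP30. Its fall at 5 µM (−0.32, SE 0.0603, limma adjusted p = 0.00454) was small beside that of GLT25D2, which was selected for its fall there. The fall of GLT25D1 at 2 µM (−0.29, limma adjusted p = 0.0116) was not called without either DMSO sample. The lysyl hydroxylases, which make the residue that GLT25D2 glycosylates, went both ways at 5 µM. PLOD3 was lower (−0.34, limma adjusted p = 0.00629), and PLOD1 and PLOD2 were higher (0.34 and 0.42, limma adjusted p = 0.00419 and 0.00193). LOXL2, a lysyl oxidase that crosslinks collagen, had the largest rise of the list, from 0.48 and 0.536 FPKM with DMSO to 2.81 and 2.61 with 2 µM and 10.3 and 9.89 with 5 µM CBP30 (1.30 and 2.88, adjusted p = 6.86e-05 and 8.76e-07), and LOXL3 was lower at 5 µM (−0.75, adjusted p = 0.000445). P4HA2, a prolyl hydroxylase, and CRTAP, a part of the prolyl 3-hydroxylation complex, were higher at 5 µM by 0.66 and 0.46 (adjusted p = 0.000414 and 0.00114).

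Collagen chains, the substrates, were mostly not expressed, since 9 of 43 passed the filter, and with 5 µM CBP30 5 of these were lower and 2 higher (4 and 2 with 2 µM), where 25.4% and 21.2% of all tested genes were called at 5 µM and 16.3% and 15.9% at 2 µM. The 5 became 3 without replicate 1 of DMSO or either sample of 5 µM CBP30, and at 2 µM the counts were 2 and 1 without either DMSO sample. COL15A1 went from 5.55 ± 0.314 FPKM to 2.18 ± 0.12 and 0.804 ± 0.146 FPKM with 2 and 5 µM CBP30 (−1.04 and −1.86, limma adjusted p = 0.000217 and 6.71e-06), and its replicates at 2 µM were at 2.09 and 2.26 FPKM. COL23A1 was lower at 5 µM (16 ± 1.17 to 6.79 ± 0.423 FPKM, −1.12, adjusted p = 8.2e-05), and COL1A1 was higher from a low level (0.481 ± 0.0555 to 1.92 ± 0.149 FPKM, 0.98, adjusted p = 9e-05).

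FAM178A, the paralogue of FAM178B, moved the other way. It was at 7.93 and 8.33 FPKM with DMSO and at 12.8 and 13.5 FPKM with 5 µM CBP30 (0.63, SE 0.0907, limma adjusted p = 0.0013), and at 7.54 and 9.39 FPKM with 2 µM, where it was not called (adjusted p = 0.734; 0.036 without replicate 1 of that group). ANKRD32 (SLF1), its partner, was higher at 5 µM as well (6.57 ± 0.403 to 10 ± 0.0717 FPKM, 0.54, adjusted p = 0.00467). Of the 8 tested genes of this list, which holds the SMC5/6 complex, 3 were higher and 0 lower at 5 µM by limma (4 and 1 at an unadjusted p under 0.05), beside 21.2% and 25.4% of all tested genes, the third being SMC5, whose call (0.55, adjusted p = 0.0165) was lost without either sample of DMSO or of 5 µM CBP30.

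The counts with I-CBP112 depended on single samples. At 5 µM, where 3.28% of all tested genes were called lower and 3.84% higher by limma, 2 of the acyl-CoA synthetases were lower and 4 higher, 0 of the collagen-modifying genes were lower and 4 higher, and 2 collagen chains were lower and 1 higher, while the fatty acid oxidation and SMC5/6 lists held 0 calls by limma (at an unadjusted p under 0.05, 2 lower and 1 higher for fatty acid oxidation, 0 of either direction for SMC5/6, and 0 lower and 6 higher for collagen modification). Of the genes named above, ACSS1, COL15A1 and LOXL2 were at 1.61 ± 0.0904, 3.5 ± 0.0413 and 1.57 ± 0.151 FPKM with 5 µM I-CBP112, between their DMSO and 5 µM CBP30 levels. On leaving out 1 sample, the counts at 5 µM I-CBP112 ranged from 0 to 3 lower and 0 to 7 higher for acyl-CoA synthetases, from 1 to 7 higher for collagen modification and from 0 to 5 lower for the neighbours.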

How the data were processed

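Polyadenylated RNA of K562 cells treated for 48 h (5 groups of 2) was sequenced from stranded libraries. The authors deposited 1 table of FPKM values, with each sample in its own column. The submitters' processing notes name hg19, FastQC, TopHat2 2.0.10, Bowtie 1.0.0, SAMtools 0.1.19, Cufflinks 2.2.1 and Cuffnorm; the annotation and the strand setting are not given in the sources used here. FPKM values hold no counts, so the depth is unknown and precision rests on 2 replicates per group.

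The scale of analysis was log2(FPKM + 1), and limma 3.58.1 was run in R 4.3.3 (lmFit, eBayes with trend, 5 residual and 2.15 prior degrees of freedom), all 10 samples in 1 fit without covariates. The test covered the genes averaging 0.5 FPKM or more, and a call required an adjusted p (Benjamini-Hochberg) under 0.05. Fold changes on this scale understate changes of low genes. The procedure was tested on simulated data. Tables and plots used Python 3.11.15, pandas 2.3.3 and matplotlib 3.10.9. Gene spans came from a GENCODE annotation of hg19, found through the symbol (19500 genes) or through a former name (1916). Promoter windows came from RefSeq for 1 of the 3 genes.

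The 3 genes, the lists and the rules were chosen with earlier results of these data known. Named genes were the 3 genes; from each list, up to 4 called genes per direction with the largest change at 5 µM CBP30 and at least 1 FPKM; all tested neighbours and SMC5/6 genes; the 5 nearest genes by likeness; and 3 genes on either side of the 8-fold threshold. Not all of these are discussed, and PLOD1 was added beside the other lysyl hydroxylases. Same-numbered replicates did not deviate together (correlations across genes of −0.0681 to 0.0939), so the number was not used as a block. Alternatives used no filter, a filter at 5 FPKM, 0.1 as the pseudocount, median centring, quantile normalization, eBayes without trend, only the groups compared, the replicate block, removal of the trend with transcript length, both of these together (chosen after seeing the data), and leaving out each sample.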

Additional observations from a re-analysis of the deposited data

How the results depend on the processing

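At 2 µM CBP30, ACSM3, FAM178B and GLT25D2 were called lower under all 20 alternatives, with log2 fold changes from −1.73 to −1.56, −1.15 to −0.98 and −2.12 to −1.65. Their adjusted p ranged from 1.01e-05 to 0.0255, 1.32e-05 to 0.0405 and 2.57e-05 to 0.0431, the largest values coming from the limma fit of only the groups compared. With the replicate block the adjusted p was 0.000144, 0.000463 and 0.000821; same-numbered samples share only a number. With the length trend removed the log2 fold changes were −1.63, −1.12 and −1.83. The number of genes called lower at 2 µM, 2079, became 164 with only the groups compared, a fit with fewer samples, and 997 (without replicate 2 of DMSO) to 3598 (without replicate 2 of 2 µM CBP30) on leaving out 1 sample. Among list genes that were not called at 2 µM, the sign turned on 1 sample of that group: without replicate 1 or 2, ANKRD39 was at −0.19 or 0.34, ECI1 at −0.34 or 0.39 and SMC5 at 0.28 or −0.21. With only the groups compared, the list calls at 2 µM fell to 1 lower and 1 higher for acyl-CoA synthetases, 0 and 2 for collagen modification and 1 and 0 for neighbours by limma.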
